A study of Mus musculus with 12 samples.

Results

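The 10 genes described here encode the NF-kB transcription factor subunits (Nfkb1, Nfkb2, Rel, Rela and Relb), the cytoplasmic inhibitors IkB-alpha and IkB-epsilon (Nfkbia and Nfkbie), and proteins that NF-kB induces and that act back on the pathway (Birc3, Tnfaip3 and Traf1). They were chosen by name from mouse gene annotation, with earlier results of these data known. All 10 were found among the 55421 genes of the count table. Messenger RNA had been sequenced from 12 libraries, 3 in each of 4 groups, and the comparisons ask how rebastinib, a kinase inhibitor directed at the angiopoietin receptor TIE2, changed these transcripts in a tumour cell line and in a macrophage line. ID8 is an ovarian surface epithelial cancer line (epithelial, female, C57BL6J wildtype by its labels), measured after 6 h in 5 nM rebastinib and in control cells. PMJ2R is a peritoneal macrophage line (female, C57BL6J, immortalised with the v-raf and v-myc oncogenes, which the control cells carry too), measured in the same pair of conditions. Both are cultured lines, so each condition stands for 1 cell line and not for animals. Nothing in the labels tells replicates apart as cultures of their own, and the p-values therefore cover the spread among these libraries, which could be technical.

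NF-kB dimers wait in the cytoplasm bound to IkB proteins. Receptors for TNF, IL-1 and microbial products activate the IKK kinases, which mark the IkB proteins for destruction and free the dimers to enter the nucleus. A second, slower branch runs through the kinase NIK (encoded by Map3k14) and turns the Nfkb2 product p100 into p52, the partner of RelB. The freed dimers induce their own inhibitors, among them Nfkbia, Nfkbie and Tnfaip3, which ends the response. In macrophages the pathway drives inflammatory genes, and in epithelial tumour cells it is known for survival and inflammatory signalling.

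Library totals ran from 19057954 to 24971090 counts in ID8 rebastinib and from 22102800 to 23486355 in ID8 control libraries, and from 19025504 to 20242502 in PMJ2R rebastinib and from 23200008 to 27070556 in PMJ2R control libraries. Of 12 macrophage markers, 11 reached a mean of 1 CPM (counts scaled to library size) in PMJ2R in both conditions, and 3 did so in ID8. Of 12 markers of ovarian surface epithelium and mesothelium, 11 reached it in ID8 with rebastinib and 12 in ID8 control, against 1 in PMJ2R. Of 6 fibroblast markers, 4 reached it in ID8 in both conditions and 0 in PMJ2R. Among 6 T cell markers 1 reached it in each group, with Trac at 12.8 CPM in ID8 control. Of 6 B cell and 6 endothelial markers, 0 reached it in any group. Tek, the gene of the intended drug target, had no count in ID8, and in PMJ2R it had 2 counts over the 3 rebastinib libraries and 8 over the 3 control libraries. Genes overlapping ribosomal RNA took 1.05% to 1.60% of counts in ID8 rebastinib libraries against 0.106% to 0.355% in ID8 control libraries, and 5.63% to 5.99% against 0.0927% to 0.172% in the same order in PMJ2R. Mitochondrially encoded genes also took more with rebastinib, 4.74% to 5.12% against 2.92% to 3.14% in ID8 control and 5.51% to 5.88% against 3.50% to 4.25% in PMJ2R control. These shares moved with treatment in every library, and their part in the results was not tested. As no batch is labelled, handling and treatment cannot be told apart. In bulk libraries, fewer cells of a type and less RNA per cell cannot be told apart either.

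The start sites of several members carry the letters that NF-kB dimers bind, and these are shown because the members encode the factor and its own feedback. Stretches of 130 bases upstream of a RefSeq start site in GRCm38.p6 follow, 5′ to 3′ along the gene, with matches to the kB consensus in capitals. They lie at chr19:46304607-46304736 (Nfkb2, plus strand), chr11:23770970-23771099 (Rel, minus strand), chr12:55492648-55492777 (Nfkbia, minus strand), chr17:45555570-45555699 (Nfkbie, plus strand), chr10:19015411-19015540 (Tnfaip3, minus strand) and chr19:5637411-5637540 (Rela, plus strand, shown as a member with no match).
Nfkb2: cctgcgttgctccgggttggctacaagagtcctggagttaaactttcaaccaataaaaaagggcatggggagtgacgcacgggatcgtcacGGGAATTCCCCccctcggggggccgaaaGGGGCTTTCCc
Rel: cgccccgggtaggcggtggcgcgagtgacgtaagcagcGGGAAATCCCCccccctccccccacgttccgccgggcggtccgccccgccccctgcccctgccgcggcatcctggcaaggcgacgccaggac
Nfkbia: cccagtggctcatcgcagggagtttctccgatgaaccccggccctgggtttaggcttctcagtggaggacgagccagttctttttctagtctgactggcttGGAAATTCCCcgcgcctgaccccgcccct
Nfkbie: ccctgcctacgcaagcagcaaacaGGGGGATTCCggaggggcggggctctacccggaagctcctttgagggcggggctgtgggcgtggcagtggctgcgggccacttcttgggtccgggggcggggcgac
Tnfaip3: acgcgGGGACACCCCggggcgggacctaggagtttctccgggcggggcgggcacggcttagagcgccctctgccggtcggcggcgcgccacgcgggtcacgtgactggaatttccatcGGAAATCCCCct
Rela: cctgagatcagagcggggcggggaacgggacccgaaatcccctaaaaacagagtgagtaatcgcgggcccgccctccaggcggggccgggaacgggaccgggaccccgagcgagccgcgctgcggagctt
The search covered both strands of windows of 300 bases (250 before and 50 after the start) for the kB consensus motif. It was GGGRNWYYCC, where R is A or G, N any base, W A or T, and Y C or T. Windows were at hand for 8 of the 10 members, all but Nfkb1 and Relb. The consensus was present for 5 of these 8, Nfkb2, Rel, Nfkbia, Nfkbie and Tnfaip3. Among 32851 windows of this length, 4.51% held the consensus, and by gene it was found in at least 1 window of 5.14% of 27025 genes, the share that matches the count of members, which have 11 windows. The windows of Rela, Birc3 and Traf1 held no match, which says only that these letters are not there. In the stretch of Nfkb2 overlapping matches began 39 and 38 bases before the start and a further one 11 bases before it. Overlapping matches in Rel began at 92 and 91 bases, that of Nfkbia at 29, that of Nfkbie at 106, and those of Tnfaip3 at 125 and 12 bases before the start. A match is a description of letters and not evidence of binding. The members were chosen by name as NF-kB subunits and genes of its feedback. Setting their share beside that of all genes is therefore a description and not a test.

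Rebastinib lowered 5 of the 9 members tested in ID8 and raised 1 by edgeR's quasi-likelihood test at an adjusted p of 0.05, and in PMJ2R it lowered 7 of 10 and raised 1. In both lines Rel, which encodes c-Rel, rose, while Nfkb2, Rela, Relb, Nfkbie and Birc3 fell at least 2-fold. The deepest falls were those of Nfkbie and Birc3, about 8-fold or more in either line. These counts stand against a very broad change, since 80.4% of the 14829 genes tested in ID8 and 83.7% of the 14010 tested in PMJ2R were called. In ID8 38.4% of tested genes rose and 42.0% fell, and 24.4% fell at least 2-fold, against 5 of 9 members. In PMJ2R 40.1% rose and 43.6% fell, and 25.7% fell at least 2-fold, against 5 of 10 members. The ranges of the groups did not overlap for 8 of 9 tested members in ID8 and 8 of 10 in PMJ2R, beside 82.2% and 84.3% of all genes tested. The median log2 fold change of the tested members was -1.28 in ID8 and -1.04 in PMJ2R, beside -0.07 and -0.05 over all genes tested. With the length and GC trends removed it was -0.95 in ID8 and -0.80 in PMJ2R, beside -0.07 and -0.11 over all genes tested. As the members were chosen with earlier results of these data known, setting them beside all genes is a description and not a test. Traf1 did not pass the filter on low counts in ID8, and Nfkbie and Relb had only 4 to 14 counts in any PMJ2R rebastinib library, so these counts over the members that passed are a description. The values of all libraries are drawn in the plot of member levels.

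**Figure D1:**
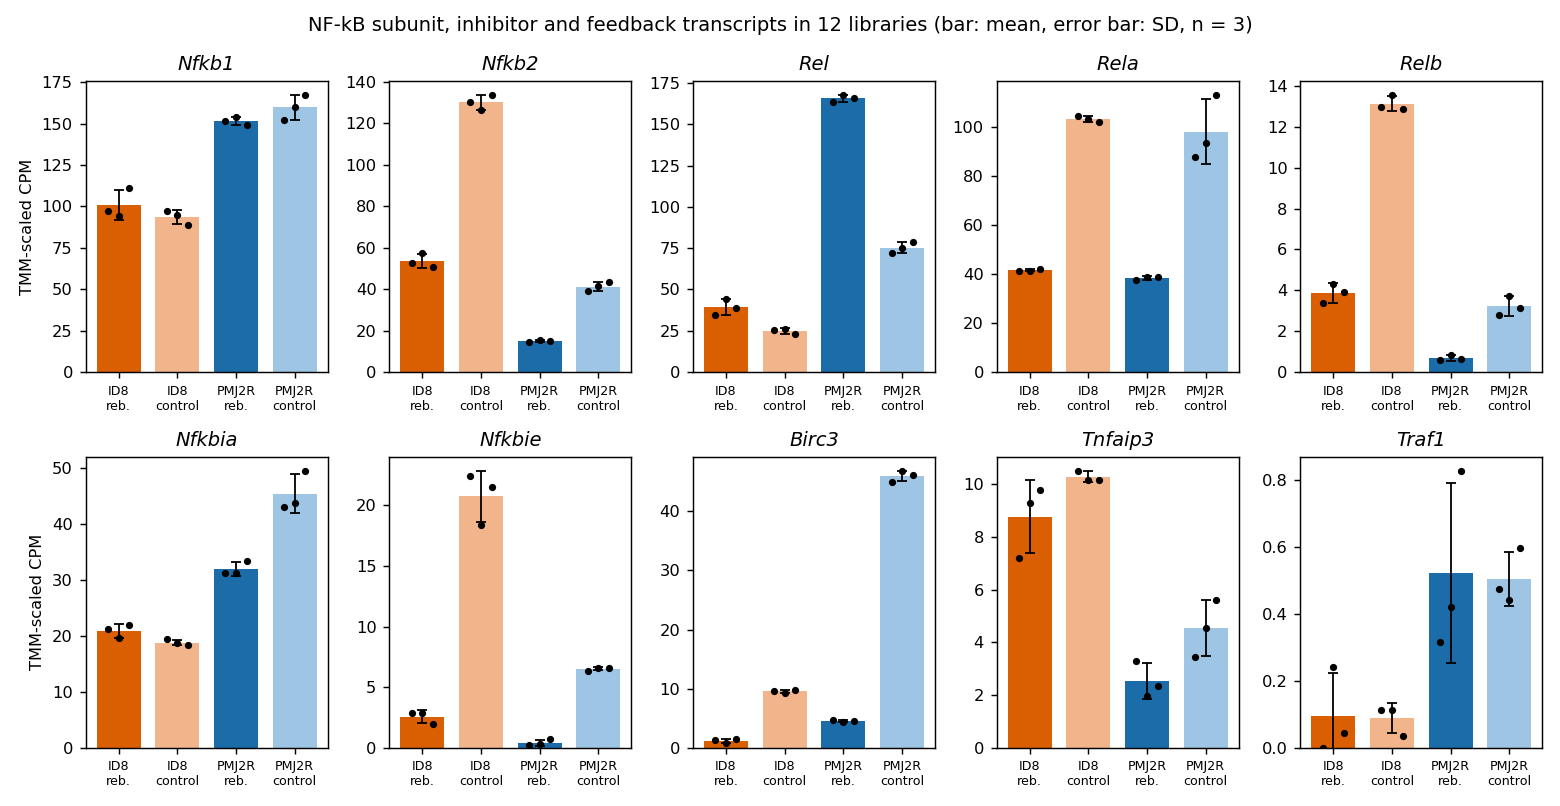
TMM-scaled CPM (vertical axis, from 0) of each member in ID8 rebastinib, ID8 control, PMJ2R rebastinib and PMJ2R control libraries. Bars are means, error bars SD (n = 3) and points single libraries. Rel is higher with rebastinib in both lines (mean 166 against 75.2 CPM in PMJ2R), whereas Nfkb2, Rela, Relb, Nfkbie and Birc3 are lower in every rebastinib library.

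Among the subunits, Rela encodes p65, the main activating subunit (ENSMUSG00000024927, GRCm38 chr19:5637483-5648130, plus strand). In ID8 it stood at 41.4, 41.2 and 42.1 CPM in the rebastinib libraries, against 104.4, 103.5 and 102.1 CPM in the control libraries. In PMJ2R Rela had 37.4, 38.9 and 38.6 CPM with rebastinib, against 87.7, 93.5 and 113 CPM in control. The groups were far apart in both lines, and the 3 rebastinib libraries of each line agreed within 2 CPM. Rela fell by 1.31 on the log2 scale in ID8 (SE 0.0675, edgeR adjusted p = 4.87e-10) and fell by 1.29 in PMJ2R (SE 0.0755, edgeR adjusted p = 4.21e-11).

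Rel encodes c-Rel, the activating subunit best known from lymphoid and myeloid cells (ENSMUSG00000020275, GRCm38 chr11:23736847-23770970, minus strand), and its promoter stretch above holds 1 cluster of kB letters. It was the only member called higher with rebastinib. In PMJ2R it had 163.5, 167.7 and 166 CPM with rebastinib, against 72.1, 74.9 and 78.7 CPM in control. In ID8 it had 34.6, 44.1 and 38.9 CPM with rebastinib, against 25.5, 25.8 and 22.8 CPM in control. No rebastinib library of either line reached down to its control libraries. The log2 fold change of Rel was 1.20 in PMJ2R (SE 0.0474, edgeR adjusted p = 8.45e-14) and 0.67 in ID8 (SE 0.0987, edgeR adjusted p = 2.04e-05). The ID8 value depended on scaling: with library totals alone it was 0.24 (edgeR adjusted p = 0.0569), and with the trends of transcript length and GC content removed it was 1.02 (edgeR adjusted p = 1.003e-08).

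Nfkb1 encodes p105 and its product p50, a subunit that binds DNA without an activating domain (ENSMUSG00000028163, GRCm38 chr3:135584655-135691547, minus strand). Its change with treatment was called in neither line. In ID8 it had 97.2, 93.9 and 111.4 CPM with rebastinib, against 97.1, 94.7 and 88.7 CPM in control, and in PMJ2R 151.6, 153.9 and 149.2 CPM with rebastinib, against 152.3, 160.0 and 167.3 CPM in control. The ID8 ranges overlapped and so did the PMJ2R ranges. Its log2 fold change was 0.12 in ID8 (SE 0.0784, edgeR adjusted p = 0.187) and -0.015 in PMJ2R (SE 0.0460, edgeR adjusted p = 0.768). Scaling set the sign here: in ID8 it was called higher with the length and GC trends removed (0.23, edgeR adjusted p = 0.00223) and lower with library totals alone (-0.32, edgeR adjusted p = 0.00633). In PMJ2R it was called lower with library totals alone (-0.57, edgeR adjusted p = 1.09e-09) and without an expression filter (-0.22, edgeR adjusted p = 0.000104).

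Both NF-kB subunits of the slower branch, Nfkb2 and Relb, fell. Nfkb2 (ENSMUSG00000025225, GRCm38 chr19:46304320-46312385, plus strand) encodes p100 and p52. It had 52.5, 57.6 and 50.7 CPM in ID8 rebastinib libraries, against 130.5, 126.3 and 133.5 CPM in ID8 control libraries. In PMJ2R it had 14.5, 15.3 and 15.0 CPM with rebastinib, against 39.0, 41.4 and 43.4 CPM in control. In either line every rebastinib library lay at less than 50% of the lowest control library. The fall was 1.28 on the log2 scale in ID8, that is a log2 fold change of -1.28 (SE 0.0732, edgeR adjusted p = 1.35e-09), and -1.40 in PMJ2R (SE 0.0723, edgeR adjusted p = 3.00e-12). With the length and GC trends removed the log2 fold change was -0.95 in ID8 and -0.99 in PMJ2R, less than 2-fold. Nfkb2 shares 299 exonic bases with Psd and 531 with AC114539.1, both on the opposite strand, and no strand setting is given, so some of its reads may belong to them. These neighbours averaged at most 13.1 CPM (Psd in ID8 control) in any group. In PMJ2R Psd averaged 2.91 CPM with rebastinib and 9.47 in control, and AC114539.1 averaged 4.56 and 9.18. Nfkb2 averaged 14.9 and 41.3 CPM in the same PMJ2R groups, so the overlap weighs more there. In ID8 Psd was also lower with rebastinib (6.91 CPM), while AC114539.1 averaged 5.96 with rebastinib and 5.00 in control. How far these genes add to the Nfkb2 values was not tested.

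Relb (ENSMUSG00000002983, GRCm38 chr7:19606217-19629438, minus strand) encodes RelB, the partner of p52. Relb in ID8 had 3.38, 4.32 and 3.89 CPM with rebastinib, against 13.0, 13.6 and 12.9 CPM in control. Relb in PMJ2R had 0.572, 0.841 and 0.636 CPM with rebastinib, against 2.80, 3.74 and 3.15 CPM in control. The groups did not overlap, although the PMJ2R rebastinib values rest on 9 to 14 counts a library. Relb fell by 1.76 on the log2 scale in ID8 (SE 0.127, edgeR adjusted p = 1.21e-08) and fell by 2.17 in PMJ2R (SE 0.246, edgeR adjusted p = 2.04e-07).

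Because the subunits moved in opposite directions, their proportions were set side by side per kilobase of exon. In PMJ2R the mean share of Rel among the 5 subunit transcripts was 43.8% ± 0.128 with rebastinib and 15.5% ± 0.697 in control, while that of Rela was 24.6% ± 0.228 with rebastinib and 48.9% ± 2.23 in PMJ2R control libraries (SD, n = 3). In ID8 Rel made up 13.2% ± 1.24 with rebastinib and 4.33% ± 0.279 in control, and Rela 33.98% ± 1.07 with rebastinib and 44.0% ± 0.308 in ID8 control libraries (SD, n = 3). The ratio of Rel to Rela per kilobase, which a single scale factor per library cannot alter, was 1.80, 1.78 and 1.77 in PMJ2R rebastinib libraries and 0.338, 0.330 and 0.286 in PMJ2R control libraries. In ID8 the same ratio was 0.344, 0.441 and 0.381 with rebastinib and 0.101, 0.103 and 0.0919 in control. Rel thus stood above Rela per kilobase in the 3 PMJ2R rebastinib libraries and in none of the others. Nfkb2 made up 29.4% with rebastinib and 37.1% in ID8 control, and 6.43% with rebastinib and 13.9% in PMJ2R control.

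The sum of the 5 subunit transcripts was 38.5 to 40.8 CPM per kb in ID8 with rebastinib and 76.0 to 77.3 in control. In PMJ2R it was 49.96 to 51.4 with rebastinib and 60.0 to 71.5 CPM per kb in control. Shares depend on the length assigned to Nfkb1, whose merged exons span 12061 bases while its longest transcript has 4149. By the longest transcript of each gene Nfkb1 had the largest mean share in PMJ2R (47.5% with rebastinib, 40.0% in control) and in ID8 with rebastinib (40.5%), and Rel then took 28.9% with rebastinib and 10.5% in PMJ2R control. These ratios and shares were chosen after the values were seen and carry no test.

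**Figure D2:**
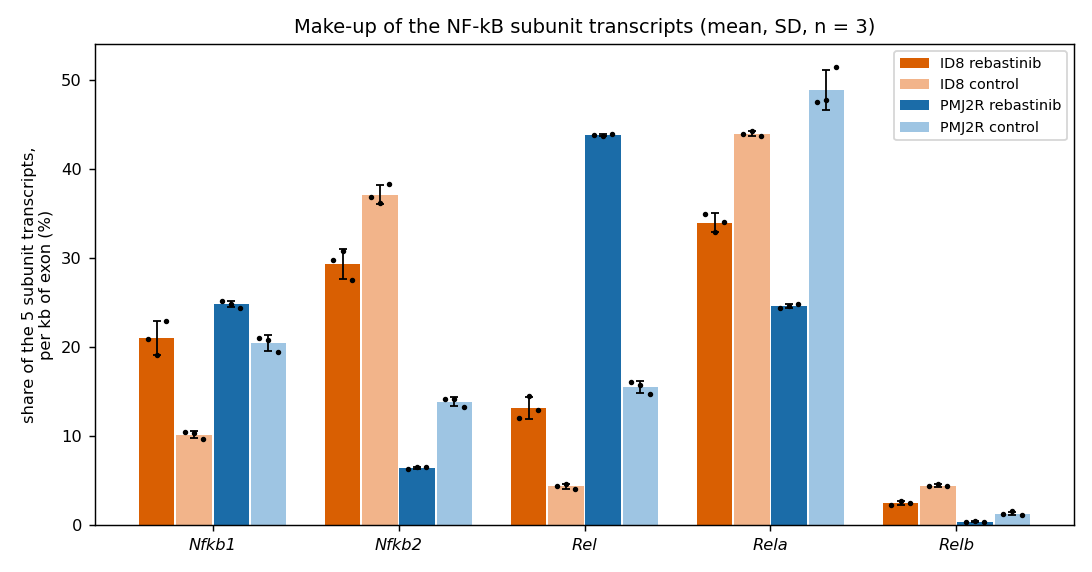
Share of each subunit in the summed subunit transcripts (percent, per kb of merged exon, vertical axis from 0) in ID8 rebastinib, ID8 control, PMJ2R rebastinib and PMJ2R control. Bars are means, error bars SD (n = 3) and points single libraries. Rel takes 43.8% in PMJ2R with rebastinib and 15.5% in PMJ2R control, while Rela takes 24.6% and 48.9% in the same groups.

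The cytoplasmic inhibitors differed from each other. Nfkbie (ENSMUSG00000023947, GRCm38 chr17:45555703-45563169, plus strand) encodes IkB-epsilon, which holds Rela and c-Rel dimers. It had 2.83, 2.88 and 1.92 CPM in ID8 rebastinib libraries, against 22.4, 18.4 and 21.5 CPM in ID8 control libraries. Nfkbie in PMJ2R had 0.254, 0.300 and 0.700 CPM with rebastinib, which are 4, 5 and 11 counts, against 6.37, 6.62 and 6.56 CPM in control. All rebastinib libraries lay far below all control libraries of their line. The log2 fold change of Nfkbie was -3.05 in ID8 (SE 0.153, edgeR adjusted p = 3.66e-10) and -3.89 in PMJ2R (SE 0.242, edgeR adjusted p = 4.41e-11), the lowest value of any member in either line, although in ID8 it lay within an SE of that of Birc3.

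Nfkbia encodes IkB-alpha, the inhibitor that is degraded and resynthesised fastest when the pathway fires (ENSMUSG00000021025, GRCm38 chr12:55489410-55492647, minus strand). Nfkbia in PMJ2R had 31.3, 31.2 and 33.5 CPM with rebastinib, against 43.1, 43.8 and 49.6 CPM in control, with no overlap. Nfkbia in ID8 had 21.2, 19.6 and 22.0 CPM with rebastinib, against 19.4, 18.7 and 18.4 CPM in control, a gap of about 0.2 CPM between the nearest libraries. Nfkbia fell by 0.45 on the log2 scale in PMJ2R (SE 0.0666, edgeR adjusted p = 6.60e-06). In ID8 its log2 fold change was 0.16 (SE 0.0892, edgeR adjusted p = 0.112), which turned to -0.18 with the length and GC trends removed (edgeR adjusted p = 0.0772) and to -0.27 with library totals alone (edgeR adjusted p = 0.0179), and was called higher with RLE size factors (0.20, edgeR adjusted p = 0.0497). Per kilobase, Nfkbia exceeded Nfkbie 14.2, 12.8 and 21.6 times in ID8 with rebastinib and 1.63, 1.92 and 1.62 times in ID8 control. In PMJ2R it did so 233, 197 and 90.4 times with rebastinib and 12.8, 12.5 and 14.3 times in control, a ratio that rests on the few Nfkbie counts.

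Among the genes that NF-kB induces, Birc3 encodes the ubiquitin ligase cIAP2, which acts at the TNF receptors and protects from cell death (ENSMUSG00000032000, GRCm38 chr9:7848699-7873186, minus strand). Birc3 in PMJ2R had 4.64, 4.38 and 4.58 CPM with rebastinib, against 45.0, 46.8 and 46.1 CPM in control. Birc3 in ID8 had 1.27, 0.781 and 1.40 CPM with rebastinib, which are 23, 13 and 32 counts, against 9.65, 9.18 and 9.77 CPM in control. The groups did not overlap, and the PMJ2R libraries of each group lay within 2 CPM of each other. Birc3 fell by 3.28 on the log2 scale in PMJ2R (SE 0.0864, edgeR adjusted p = 5.89e-16) and fell by 3.01 in ID8 (SE 0.182, edgeR adjusted p = 2.19e-09). Its paralog Birc2, which encodes cIAP1, changed far less, with log2 fold changes of -0.26 in PMJ2R (edgeR adjusted p = 0.0104) and -0.38 in ID8 (edgeR adjusted p = 0.00282).

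Tnfaip3 encodes the ubiquitin-editing enzyme A20, a brake on signalling upstream of IKK (ENSMUSG00000019850, GRCm38 chr10:19000910-19015657, minus strand). In PMJ2R it had 3.30, 1.98 and 2.36 CPM with rebastinib, against 3.46, 4.56 and 5.61 CPM in control. In ID8 it had 7.20, 9.31 and 9.80 CPM with rebastinib, against 10.5, 10.2 and 10.2 CPM in control. The rebastinib libraries were the lower ones in both lines, by a narrow margin between the nearest libraries. Tnfaip3 fell by 0.78 on the log2 scale in PMJ2R (SE 0.208, edgeR adjusted p = 0.00220). In ID8 its log2 fold change of -0.22 was not called (SE 0.126, edgeR adjusted p = 0.121). The ID8 value turned to 0.11 with the length and GC trends removed (edgeR adjusted p = 0.351), and it was called lower without ID8 rebastinib replicate 3 (-0.30, edgeR adjusted p = 0.0473), with genes averaging 5 CPM or more (-0.31, edgeR adjusted p = 0.0356) and with library totals alone (-0.65, edgeR adjusted p = 0.000640).

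Traf1 encodes a TNF receptor adaptor that is restricted to activated immune cells and some tumours (ENSMUSG00000026875, GRCm38 chr2:34941750-34961772, minus strand). Traf1 in ID8 had 0, 4 and 1 counts with rebastinib and 3, 3 and 1 counts in control, too few to test. Traf1 in PMJ2R had 0.318, 0.420 and 0.827 CPM with rebastinib, against 0.473, 0.443 and 0.596 CPM in control, with overlapping ranges. Its log2 fold change in PMJ2R was 0.11 (SE 0.401, edgeR adjusted p = 0.807), and at 5 to 17 counts a library a change of this size was not detectable.

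Set against the subunits per kilobase, the summed transcripts of the other 5 members stood at a ratio of 0.357 to 0.399 in ID8 with rebastinib and 0.275 to 0.295 in ID8 control. In PMJ2R the ratio was 0.402 to 0.442 with rebastinib and 0.601 to 0.639 in control. It was thus higher with rebastinib in ID8 and lower with rebastinib in PMJ2R, in every library. The summed transcripts of these 5 members were lower with rebastinib in both lines. They stood at 14.6 to 15.9 CPM per kb in ID8 with rebastinib and 20.9 to 22.8 in ID8 control. In PMJ2R they stood at 20.7 to 22.4 with rebastinib and 38.4 to 43.0 in control. The ID8 ratio was higher as the subunit sum, given above, fell by the larger proportion. Nfkbia holds most of the sum of these 5 members, but others of them also moved it. In PMJ2R Birc3 stood at 0.905 CPM per kb with rebastinib and 9.18 in control, beside 19.9 and 28.3 for Nfkbia. In ID8 Nfkbie stood at 0.836 CPM per kb with rebastinib and 6.82 in control, beside 13.0 and 11.7 for Nfkbia. By the same merged exon lengths, and with no test, the ratio is a description added after the values were seen.

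**Figure D3:**
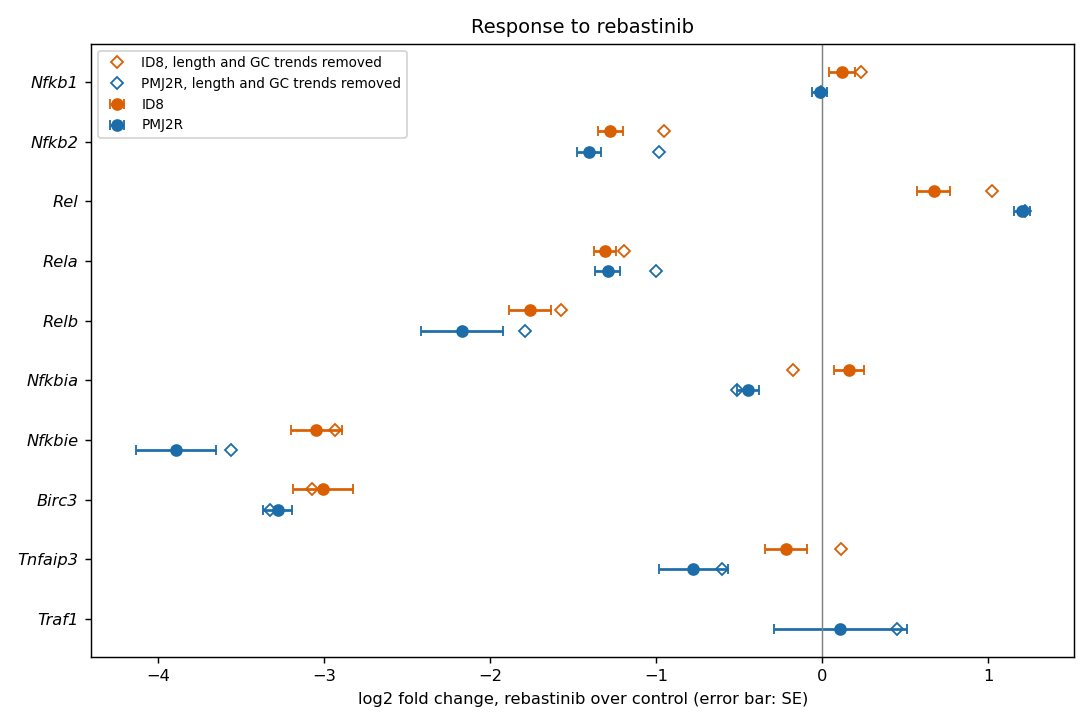
Log2 fold change of each member, rebastinib over control, in ID8 and in PMJ2R (horizontal axis, filled points with SE). Open diamonds give the value with the transcript length and GC trends removed. Nfkbie (-3.05 in ID8, -3.89 in PMJ2R) and Birc3 (-3.01 in ID8, -3.28 in PMJ2R) lie farthest left and Rel (0.67 in ID8, 1.20 in PMJ2R) farthest right. Diamonds of Nfkbia and Tnfaip3 in ID8 lie on the other side of 0 from their points.

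The response itself was compared between the lines by an interaction contrast over all 12 libraries, PMJ2R minus ID8. The difference was called for 4 of 10 members, 1 upward and 3 downward, beside 52.4% of the 16566 genes tested (21.8% upward and 30.6% downward). Rel rose further in PMJ2R, by 0.47 on the log2 scale (SE 0.108, edgeR adjusted p = 0.000725), while Nfkbia fell in PMJ2R and was not called in ID8, where its value was 0.16, a difference of -0.66 (SE 0.114, edgeR adjusted p = 3.02e-05). Nfkbie and Tnfaip3 also responded more strongly in the downward direction in PMJ2R, with differences of -0.90 (SE 0.367, edgeR adjusted p = 0.0431) and -0.62 (SE 0.255, edgeR adjusted p = 0.0461), close to the threshold. The Rel difference was 0.05 with the length and GC trends removed (edgeR adjusted p = 0.678), whereas that of Nfkbia remained past the threshold in all 21 alternatives, at an adjusted p of at most 0.00332. The calls of Nfkbie and Tnfaip3 were lost in 14 of 21 alternatives each, as detailed with the processing. For Nfkb2 the difference was -0.18 (SE 0.103, edgeR adjusted p = 0.139), for Rela -0.04 (SE 0.110, edgeR adjusted p = 0.803) and for Birc3 -0.33 (SE 0.215, edgeR adjusted p = 0.210), so no difference between the lines was called for these falls. That of Nfkb2 became called with library totals alone (-0.25, edgeR adjusted p = 0.0384). Relb (-0.47, SE 0.288) and Nfkb1 (-0.19, SE 0.0944) were not called either, with edgeR adjusted p = 0.183 and 0.100, and Nfkb1 became called with the length and GC trends removed (-0.33, edgeR adjusted p = 0.000849). The Traf1 difference had an SE of 1.06 and could not be read.

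The lines also differed in which members they expressed. In PMJ2R rebastinib cells against ID8 rebastinib cells, 8 of 9 tested members were called, 4 in each direction, where 82.5% of 14496 genes were called (39.9% higher and 42.6% lower). The log2 fold change between the lines was 2.14 for Rel (SE 0.0830, edgeR adjusted p = 5.82e-12), 2.005 for Birc3 (SE 0.226, edgeR adjusted p = 1.08e-06), 0.67 for Nfkbia (SE 0.0883, edgeR adjusted p = 5.75e-06) and 0.65 for Nfkb1. It was -2.52 for Nfkbie (SE 0.370, edgeR adjusted p = 1.79e-05), -2.42 for Relb, -1.78 for Nfkb2 and -1.73 for Tnfaip3. Nfkb2 stood at -1.19 with the length and GC trends removed.

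In PMJ2R control cells against ID8 control cells all 10 members were called, 5 higher and 5 lower, where 82.3% of 15924 genes were called (39.4% higher and 42.9% lower). In control cells the macrophage line held more of Rel (log2 fold change 1.50, SE 0.0697, edgeR adjusted p = 6.86e-14), Birc3 (2.16, SE 0.0721, edgeR adjusted p = 2.61e-16), Nfkbia (1.16, SE 0.0727, edgeR adjusted p = 8.85e-12) and Nfkb1 (0.66, SE 0.0613, edgeR adjusted p = 4.41e-09). It held less of Nfkb2 (-1.77, SE 0.0622, edgeR adjusted p = 6.43e-16), Relb (-2.12, SE 0.118, edgeR adjusted p = 1.23e-12), Nfkbie (-1.78, SE 0.0952, edgeR adjusted p = 6.81e-13) and Tnfaip3 (-1.29, SE 0.134, edgeR adjusted p = 2.83e-08). Nfkb2 stood at -1.10 with the length and GC trends removed. Traf1 was higher in PMJ2R (2.36, SE 0.489, edgeR adjusted p = 0.000186), from 13 to 17 counts a library against 1 to 3 in ID8. Each of the 8 members called in rebastinib cells had the same direction in control cells.

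Rela is the member whose order between the lines was not settled. In rebastinib cells its log2 fold change was -0.06 (SE 0.0738, edgeR adjusted p = 0.483), was called lower with library totals alone (-0.21, edgeR adjusted p = 0.0239) and turned to 0.51 with the length and GC trends removed (edgeR adjusted p = 3.74e-06). In control cells it was -0.18 (SE 0.0757, edgeR adjusted p = 0.0306), and the call was lost without PMJ2R control replicate 1 (-0.11, edgeR adjusted p = 0.196) or PMJ2R control replicate 2 (-0.15, edgeR adjusted p = 0.119), and with library totals alone (-0.10, edgeR adjusted p = 0.181). With these trends removed it turned to 0.34 in control cells (edgeR adjusted p = 1.21e-05).

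**Figure D4:**
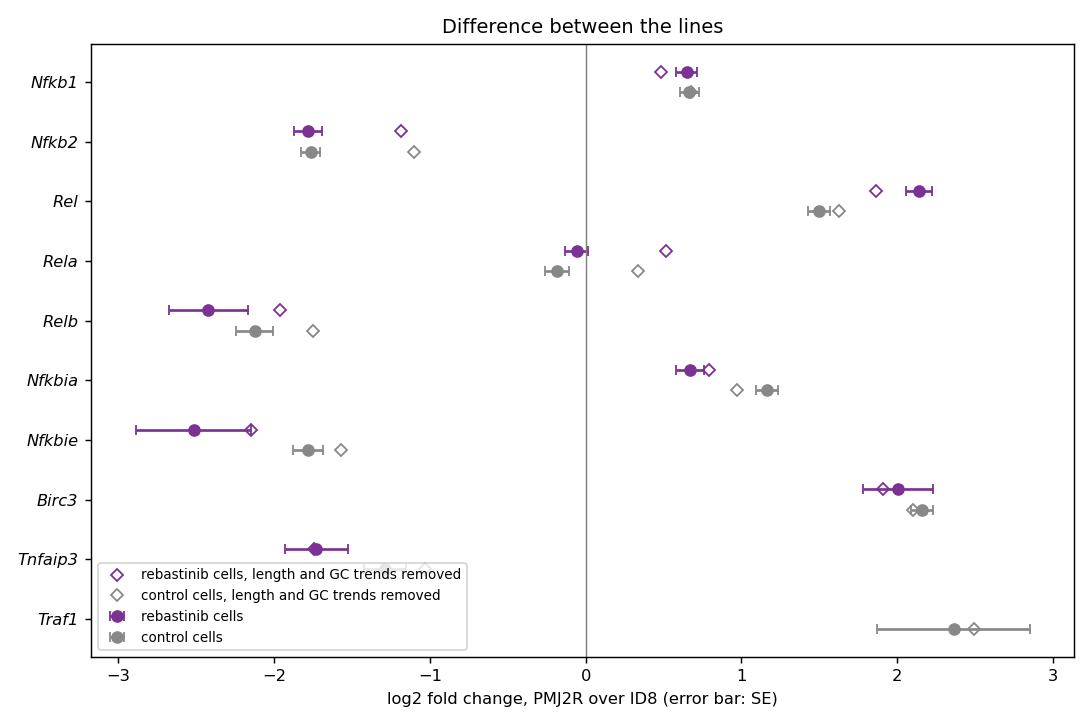
Log2 fold change of each member, PMJ2R over ID8, in rebastinib cells and in control cells (horizontal axis, filled points with SE). Open diamonds give the value with the transcript length and GC trends removed. Rel (2.14 with rebastinib, 1.50 in control) and Birc3 (2.005 and 2.16 in the same order) lie to the right, Nfkb2, Relb, Nfkbie and Tnfaip3 to the left, and the points and diamonds of Rela lie on opposite sides of 0. Traf1 was not tested in rebastinib cells.

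Per kilobase of merged exon, the order of the members changed with treatment in both lines. The leader depends on the length used: by the longest transcript Nfkb1 led in PMJ2R with rebastinib (36.5 CPM per kb, against 22.2 for Rel) and in PMJ2R control (38.5, against 36.1 for Rela). The same held in ID8 with rebastinib (24.3 for Nfkb1, against 15.3 for Rela), while Rela led in ID8 control by either length. The orders that follow are by merged exons. In PMJ2R with rebastinib Rel led at 22.2 ± 0.279 CPM per kb, followed by Nfkbia at 19.9 ± 0.799, Nfkb1 at 12.6 ± 0.192 and Rela at 12.5 ± 0.251 (SD, n = 3). In PMJ2R control cells Rela led at 31.9 ± 4.35 CPM per kb, followed by Nfkbia at 28.3 ± 2.22, Nfkb1 at 13.3 ± 0.621 and Rel at 10.1 ± 0.446 (SD, n = 3). The ranges of Nfkb1 and Rela overlapped with rebastinib, and those of Rela and Nfkbia overlapped in control. Lower in the order, Nfkb2 had 3.26, Birc3 0.905, Tnfaip3 0.352, Relb 0.176, Nfkbie 0.137 and Traf1 0.0592 CPM per kb with rebastinib, with overlapping ranges for the last 3. In control Birc3 had 9.18, Nfkb2 9.01, Nfkbie 2.14, Relb 0.832, Tnfaip3 0.629 and Traf1 0.0572 CPM per kb, with overlap between Birc3 and Nfkb2 and between Relb and Tnfaip3.

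In ID8 Rela led in both conditions by merged exons. With rebastinib Rela stood at 13.5 ± 0.150 CPM per kb, Nfkbia at 13.0 ± 0.755 and Nfkb2 at 11.7 ± 0.779, where neighbouring ranges overlapped, and in control Rela stood at 33.6 ± 0.365, Nfkb2 at 28.4 ± 0.796 and Nfkbia at 11.7 ± 0.319, clear of one another (SD, n = 3). Next with rebastinib came Nfkb1 at 8.36, Rel at 5.25, Tnfaip3 at 1.21, Relb at 0.995, Nfkbie at 0.836 and Birc3 at 0.230 CPM per kb, with Tnfaip3, Relb and Nfkbie overlapping in turn. In control the order was Nfkb1 at 7.75, Nfkbie at 6.82, Relb at 3.38, Rel at 3.31, Birc3 at 1.90 and Tnfaip3 at 1.42 CPM per kb, where Nfkb1 overlapped Nfkbie and Relb overlapped Rel. Traf1 came last, at 0.0107 CPM per kb with rebastinib and 0.00997 in control.

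The kinases that control the members moved unevenly. Of 13 genes of the IKK complex and its upstream kinases, 4 rose and 7 fell in ID8 (median log2 fold change -0.17, beside -0.07 over all tested genes), and 6 rose and 5 fell in PMJ2R (median 0.034, beside -0.05). With the length and GC trends removed the ID8 median turned to 0.11, with 4 higher and 5 lower, and the PMJ2R median was 0.36. Map3k14, the NIK kinase that starts p100 processing, averaged 1.72 ± 0.483 CPM with rebastinib and 19.3 ± 0.229 in PMJ2R control, and 10.6 ± 3.11 CPM with rebastinib and 35.7 ± 0.493 in ID8 control (SD, n = 3). It fell by 3.41 on the log2 scale in PMJ2R (SE 0.142, edgeR adjusted p = 1.66e-13) and fell by 1.73 in ID8 (SE 0.150, edgeR adjusted p = 7.74e-08), a difference of -1.74 between the lines (SE 0.250, edgeR adjusted p = 3.01e-06).

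Chuk, which encodes IKK-alpha, averaged 140 ± 0.653 CPM with rebastinib and 75.3 ± 4.90 in PMJ2R control, where its log2 fold change was 0.95 (SE 0.0563, edgeR adjusted p = 2.05e-11). In ID8 Chuk averaged 55.2 ± 7.09 CPM with rebastinib and 72.8 ± 5.29 in control (SD, n = 3) and fell by 0.39 on the log2 scale (SE 0.0942, edgeR adjusted p = 0.00150). The directions were opposite, and the difference between the lines was 1.29 (SE 0.112, edgeR adjusted p = 1.44e-09). Ikbkb, which encodes IKK-beta, averaged 81.1 CPM with rebastinib and 82.6 in PMJ2R control (0.03, edgeR adjusted p = 0.560), and 41.4 CPM with rebastinib and 47.5 in ID8 control (-0.19, edgeR adjusted p = 0.0245). Ikbkg, the scaffold NEMO, fell by 0.50 on the log2 scale in PMJ2R (edgeR adjusted p = 7.73e-07) and fell by 0.85 in ID8 (edgeR adjusted p = 1.37e-06). Ikbkg shares 418 exonic bases with the opposite-strand gene G6pdx, which averaged 244 to 315 CPM, so its level is uncertain.

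Genes of adaptors of the kinase TAK1 moved apart, with Tab1 falling and Tab3 rising. Tab1 averaged 2.09 ± 0.566 CPM with rebastinib and 41.3 ± 1.06 in PMJ2R control (log2 fold change -4.23, SE 0.119, edgeR adjusted p = 1.32e-15), and 7.37 ± 2.06 CPM with rebastinib and 37.8 ± 1.11 in ID8 control (-2.34, SE 0.144, edgeR adjusted p = 2.59e-09). Tab3 averaged 61.9 CPM with rebastinib and 21.0 in PMJ2R control (1.62, edgeR adjusted p = 7.85e-14), and 40.7 CPM with rebastinib and 21.7 in ID8 control (0.91, edgeR adjusted p = 5.16e-07).

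Of 17 adaptors and ubiquitin ligases, 7 rose and 8 fell in ID8 (median log2 fold change -0.20), and 5 rose and 10 fell in PMJ2R (median -0.26). Among all genes tested 38.4% rose and 42.0% fell in ID8 (median -0.07), and 40.1% rose and 43.6% fell in PMJ2R (median -0.05). The counts of the kinase, inhibitor, receptor and ligand lists stand beside the same shares. Ube2n, the enzyme Ubc13 that builds signalling ubiquitin chains, averaged 156 CPM with rebastinib and 69.2 in PMJ2R control (1.23, edgeR adjusted p = 5.00e-14), and 119 CPM with rebastinib and 67.0 in ID8 control (0.84, edgeR adjusted p = 3.54e-08). Traf2, which links TNF receptors to cIAP proteins, averaged 6.10 CPM with rebastinib and 28.0 in PMJ2R control (-2.14, SE 0.102, edgeR adjusted p = 1.01e-12), and 25.3 CPM with rebastinib and 38.2 in ID8 control (-0.58, SE 0.121, edgeR adjusted p = 0.000481). The death-domain adaptor Fadd fell by 2.54 on the log2 scale in ID8 (edgeR adjusted p = 4.86e-10) and fell by 3.10 in PMJ2R (edgeR adjusted p = 3.46e-12), and it shares 239 exonic bases with its antisense gene Faddos, which averaged at most 4.26 CPM.

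The inhibitors that are no members included 7 that rose and 10 that fell of 19 tested in ID8 (median log2 fold change -0.26), and 8 of each direction among 19 tested in PMJ2R (median -0.0032, which turned to 0.062 with the length and GC trends removed). Tnip3, an A20-binding protein, averaged 2.18 ± 0.575 CPM with rebastinib and 25.2 ± 0.288 in PMJ2R control (SD, n = 3), a log2 fold change of -3.47 (edgeR adjusted p = 4.10e-14), and it fell by 2.20 in ID8 (edgeR adjusted p = 2.36e-10). Pdlim2, which promotes the breakdown of nuclear p65, averaged 5.10 CPM with rebastinib and 32.3 in ID8 control (-2.66, SE 0.101, edgeR adjusted p = 3.01e-11), and 4.41 CPM with rebastinib and 12.4 in PMJ2R control (-1.43, edgeR adjusted p = 1.52e-08). Higher with rebastinib were Rnf11, which takes part in the A20 complex (1.92 in PMJ2R with edgeR adjusted p = 4.75e-15, 0.53 in ID8 with edgeR adjusted p = 1.30e-05), and N4bp1 (1.08 in PMJ2R with edgeR adjusted p = 3.49e-11, 0.97 in ID8 with edgeR adjusted p = 1.67e-08). The inhibitor list thus held large changes of both signs.

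Among 13 receptor genes, 3 rose and 6 fell of 10 tested in ID8 (median log2 fold change -0.67), and 3 rose and 7 fell of 12 tested in PMJ2R (median -0.62). Tnfrsf1a, the main TNF receptor, averaged 16.1 ± 0.591 CPM with rebastinib and 48.9 ± 1.93 in PMJ2R control, and 83.8 ± 11.2 CPM with rebastinib and 151 ± 3.55 in ID8 control (SD, n = 3). It fell by 1.54 in PMJ2R (edgeR adjusted p = 4.41e-13) and fell by 0.84 in ID8 (edgeR adjusted p = 5.81e-07), both on the log2 scale. The other TNF receptor gene, Tnfrsf1b, averaged 214 CPM with rebastinib and 75.03 in ID8 control (1.51, edgeR adjusted p = 4.28e-10), and 7.04 CPM with rebastinib and 16.6 in PMJ2R control (-1.18, edgeR adjusted p = 6.52e-09). Its response thus ran in opposite directions, a difference of -2.75 between the lines (SE 0.122, edgeR adjusted p = 1.33e-14). Cd14, the co-receptor for lipopolysaccharide, rose in both lines, by 1.68 in PMJ2R (edgeR adjusted p = 3.01e-15) and 1.93 in ID8 (edgeR adjusted p = 2.73e-09), and Il1r1, the IL-1 receptor, fell by 2.09 in ID8 (edgeR adjusted p = 1.36e-09) and 0.93 in PMJ2R (edgeR adjusted p = 9.75e-05), all on the log2 scale.

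Of 11 ligand genes, 2 passed the filter in ID8, where Tnfsf9, which encodes the 4-1BB ligand, fell by 1.25 on the log2 scale (edgeR adjusted p = 5.74e-07) and none rose. In PMJ2R the value of Tnfsf9 was -0.34 (edgeR adjusted p = 0.0214). Tnfsf9 shares 192 exonic bases with Gm11110 on the opposite strand, which averaged up to 11.6 CPM, so its level is uncertain. In PMJ2R 6 were tested, of which 2 rose and 4 fell (median log2 fold change -0.52). Tnf had no count in ID8 in either condition, and in PMJ2R it averaged 20.1 ± 1.74 CPM with rebastinib and 9.29 ± 0.610 in control (SD, n = 3), a log2 fold change of 1.18 (SE 0.0932, edgeR adjusted p = 1.38e-09). Tnfsf14, also known as LIGHT and a ligand of the lymphotoxin receptor, averaged 0.145 CPM with rebastinib and 2.05 in PMJ2R control (-3.70, SE 0.452, edgeR adjusted p = 5.50e-07), and it had no count in ID8.

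The list of known NF-kB target genes outside the members moved in both directions, as did the genes tested as a whole. Of its 36 genes, 8 rose and 8 fell of 20 tested in ID8 (median log2 fold change 0.13), and 11 rose and 6 fell of 19 tested in PMJ2R (median 0.44). Among all genes tested 38.4% rose and 42.0% fell in ID8 (median -0.07), and 40.1% rose and 43.6% fell in PMJ2R (median -0.05). With the length and GC trends removed the ID8 median of the list turned to -0.17, with 6 higher and 7 lower, and its PMJ2R median was 0.71. In PMJ2R Ier3, an early stress gene, averaged 36.2 ± 3.02 CPM with rebastinib and 4.23 ± 1.14 in control (SD, n = 3), a log2 fold change of 3.16 (SE 0.126, edgeR adjusted p = 2.71e-13), while Tnfaip2 fell by 1.86 (edgeR adjusted p = 4.77e-14) and shares 314 exonic bases with the antisense gene Gm40578. The ID8 values were 0.31 for Ier3 (edgeR adjusted p = 0.000975), which turned to -0.18 with the length and GC trends removed (edgeR adjusted p = 0.00500), and -0.46 for Tnfaip2 (edgeR adjusted p = 1.38e-05). In ID8 Bcl2l1, the survival gene Bcl-xL, rose by 1.13 on the log2 scale (edgeR adjusted p = 5.44e-09), and it rose by 1.34 in PMJ2R (edgeR adjusted p = 9.60e-13). Ptgs2, which encodes the prostaglandin enzyme COX-2, averaged 58.9 ± 8.76 CPM with rebastinib and 228 ± 7.10 in ID8 control, and 11.4 ± 2.22 CPM with rebastinib and 0.841 ± 0.0768 in PMJ2R control (SD, n = 3). It fell by 1.95 in ID8 (edgeR adjusted p = 2.93e-10) and its log2 fold change was 3.81 in PMJ2R (edgeR adjusted p = 1.53e-12), so the responses differed by 5.70 (SE 0.206, edgeR adjusted p = 3.21e-16).

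**Figure D5:**
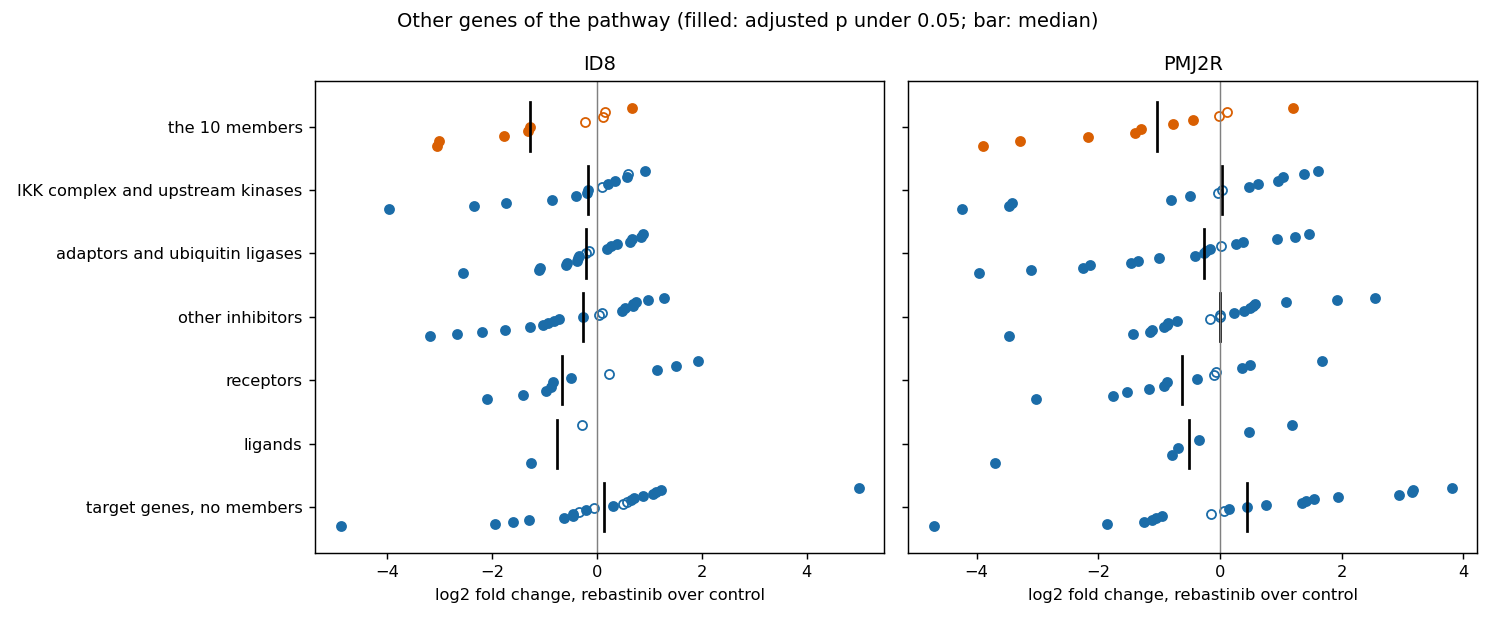
Log2 fold change, rebastinib over control (horizontal axis), of each tested gene in the member set and in the lists of other pathway genes, in ID8 (left) and PMJ2R (right). Filled points passed an adjusted p of 0.05, open points did not, and black bars are list medians. The members' medians (-1.28 in ID8, -1.04 in PMJ2R) lie to the left of those of the target genes (0.13 in ID8, 0.44 in PMJ2R). With the length and GC trends removed, which is not drawn, the ID8 medians were -0.95 for the members and -0.17 for the target genes. The PMJ2R medians were then -0.80 and 0.71 in the same order.

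The genes whose pattern over the 12 libraries was most like each member were found by the root mean square difference of log2 CPM after each gene was centred on its own mean, among about 9799 candidates averaging 5 CPM or more. The nearest were Setd7 for Nfkb1 (0.0646), Timm44 for Nfkbia (0.0769), Cd2bp2 for Rela (0.0958), H3f3b for Nfkb2 (0.106) and Rsbn1l for Rel (0.127). Crebl2 was nearest to Relb (0.207), Dag1 to Tnfaip3 (0.222), Dennd4b to Birc3 (0.229), Fbf1 to Nfkbie (0.411) and Pts to Traf1 (0.422). Nfkbie and Traf1 thus had no close match, and no member was among the 3 nearest genes of another. Traf1 had 0 to 17 counts a library, and Nfkbie had 4 to 11 in the PMJ2R rebastinib libraries. How far counting noise widened their differences was not tested. Traf1 averaged under 5 CPM, so it was no candidate for the other members. The closest pair of members was Nfkb1 and Nfkbia, at a difference of 0.206.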

How the data were processed

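The authors deposited raw read counts per Ensembl gene for all 12 libraries; per the submitters' processing notes, the tools were STAR 2.6.1c, featureCounts, FastQC and DESeq2 on GRCm38, without roles. Neither the counting annotation nor the strand setting is given in the sources used here. Symbols, positions and exon lengths came from GENCODE vM21 on the same build, and 181 identifiers without a symbol held 0.00261% of counts. Each comparison was fitted with edgeR 4.0.16 in R 4.3.3 (TMM scaling, default expression filter, robust quasi-likelihood test, Benjamini-Hochberg adjustment over all tested genes at 0.05). The SE is the log2 fold change divided by the square root of F. Printed CPM used TMM factors over all 12 libraries and can differ slightly from the within-line fits. Interaction tests used all 12 libraries. Levels of different genes were compared only as CPM per kb. Intervals were not drawn from counts, and low counts limit precision by counting error.

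Alternatives were DESeq2 1.42.0, voom of limma 3.58.1, RLE size factors, library totals alone, dropping the expression filter, keeping genes averaging 5 CPM or more, blocking on replicate number, removal of transcript length and GC trends (mgcv 1.9.3), and leaving out each library. The scripts were tested on simulated counts in which only a small set of genes was changed. That test does not cover a change as broad as the one seen here. No replicate pair agreed within sampling noise (chi-square per degree of freedom 1.67 to 21.4). The named genes are all 10 members, the gene with the smallest p in each direction of each pathway list and comparison, Chuk, Ikbkb, Ikbkg and Map3k14, and each member's nearest gene; Birc2 and Tek were added after their values were seen, and each gene named for 1 line is also given in the other. The members and lists were chosen with earlier results of these data known. The chemotherapy arms named in the series design are not analysed here.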

Additional observations from a re-analysis of the deposited data

Results flagged for a closer look

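The response to rebastinib of 4 members differed between the lines by edgeR's interaction test, given as the log2 response in PMJ2R minus that in ID8. Rel, the c-Rel subunit, differed by 0.47 and rose in both lines. With the length and GC trends removed the Rel difference was 0.05 (edgeR adjusted p = 0.678). Nfkbia differed by -0.66, with a fall called in PMJ2R and no call in ID8. Nfkbie differed by -0.90 on top of a fall called in both lines, and its PMJ2R rebastinib values rest on 4 to 11 counts a library. Tnfaip3 differed by -0.62, with a fall called in PMJ2R and no call in ID8. Nfkbia kept its call in all 21 alternatives, and Nfkbie and Tnfaip3 in 7 of 21 each.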

How the results depend on the processing

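Falls of Nfkb2, Rela, Relb, Nfkbie and Birc3 in both lines and the rise of Rel in PMJ2R kept their direction and call in every alternative that could test them. Their size was not always kept: with length and GC trends removed, Nfkb2 fell by less than 2-fold in ID8 (-0.95) and PMJ2R (-0.99). Library totals alone moved the median of all genes by -0.43 in ID8 and -0.56 in PMJ2R and changed the split of calls to 3540 higher and 8475 lower in ID8 (5687 and 6230 with TMM) and to 3104 and 8677 in PMJ2R (5623 and 6107 with TMM). Under it PMJ2R Nfkb1 was called lower (-0.57), ID8 Nfkb1 turned to -0.32 and Nfkbia to -0.27, PMJ2R Traf1 to -0.44 and the Traf1 difference to -0.040. Without an expression filter, which moved the PMJ2R median by -0.21, PMJ2R Nfkb1 was called lower (-0.22), PMJ2R Traf1 was -0.10 and its difference -0.012. With length and GC trends removed, ID8 Nfkbia was -0.18 and Tnfaip3 0.11, the Rela difference 0.14, and Rela between the lines 0.51 in rebastinib and 0.34 in control cells. DESeq2 and RLE, which moved the median difference by 0.12 and split its calls into 4401 higher and 4241 lower and 4260 and 4198 (3618 and 5066 with TMM), gave PMJ2R Nfkb1 0.026 and a Rela difference of 0.082, which was 0.037 with at least 5 CPM. The cause of these turns was not tested.

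The members called for the difference numbered 4, but 2 (Rel and Nfkbia) under DESeq2, voom, RLE, at least 5 CPM and the replicate block. With length and GC trends removed they were 3, Nfkb1, Nfkbia and Tnfaip3, without Rel and Nfkbie. They numbered 5 without an expression filter (Nfkb1 added) and 6 with library totals alone (Nfkb1 and Nfkb2 added). With at least 5 CPM, where fewer members were tested, 5 were called in PMJ2R and 4 in rebastinib cells. Over single libraries left out, the difference was called for 2 to 4 members, and its values ran from -1.48 to -0.66 for Nfkbie (edgeR adjusted p 0.00807 to 0.184), from -0.85 to -0.46 for Tnfaip3 (0.00991 to 0.164), from -0.13 to 0.057 for Rela and from -0.49 to 1.67 for Traf1. Without ID8 rebastinib replicate 1 or 2 the Nfkb1 difference was called (-0.23 and -0.25), and without replicate 2 that of Birc3 (-0.53). In the same way PMJ2R Nfkb1 ran from -0.053 to 0.014 and PMJ2R Traf1 from -0.36 to 0.36. Replicate numbers gave no sign of pairing (same-number correlations -0.17 to -0.02 in ID8, 0.01 to 0.07 in PMJ2R). Such correlations cannot show whether the samples were paired, and the labels do not say. With the replicate block the Traf1 difference was -0.021, and with length and GC trends removed as well, ID8 Nfkbia was -0.18, Tnfaip3 0.11, the Rela difference 0.14 and Rela between lines 0.51 in rebastinib and 0.33 in control cells. Members with under 20 counts in a library are limited by depth: Traf1 in every library, Relb and Nfkbie in PMJ2R with rebastinib, and Birc3 in 1 ID8 rebastinib library.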
